A study of Mus musculus with 12 samples.

Results

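The comparison set the auditory nerve of mice on postnatal day 7 (P7) against that of mice on postnatal day 3 (P3), and it was made with 4 of the 12 arrays of a developmental series, 2 at each stage. All animals were CBA/CaJ mice of either sex, and the other 8 arrays were from P0, P10, P14 and P21, with 2 arrays a stage. The tissue was the modiolus, the bony core of the cochlea, with the outer shell and lateral wall dissected away, and by the labels the left and right cochleas of 1 mouse made 1 sample. It therefore held neurons, glial cells, vessels and bone and was enriched for nerve rather than pure. Total RNA was hybridised to Affymetrix mouse genome arrays, and the values below are the authors' RMA expression values on the log2 scale, so that a difference of 1 is a doubling of signal.

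The auditory nerve carries signals from the hair cells to the brainstem in the axons of spiral ganglion neurons (SGNs). In mice, hearing begins late in the second postnatal week, and before that the SGN axons are wrapped in myelin and take on the ion channels of fast conduction. Schwann cells make the myelin of the peripheral segment, and oligodendrocytes make that of the central segment near the brainstem. Over the same days the cartilage around the cochlea is replaced by bone, and the epithelium of the cochlear duct changes shape.

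The neural and glial character of the tissue was present in all 4 arrays. The neuronal tubulin Tubb3 read 8.66 and 8.75 at P3 and 9.12 and 8.47 at P7, and the glial factor Sox10 read 10.45 and 10.75 at P3 and 10.83 and 10.87 at P7. Neither passed the test, with limma adjusted p = 0.853 for Tubb3 and adjusted p = 0.185 for Sox10. Of the 4 arrays, 1 went against its label. P7 replicate 2 read 12.55 for Xist, the RNA of the inactive X chromosome, and 8.89 for the Y-linked gene Eif2s3y, whereas P7 replicate 1 read 5.51 and 9.49, P3 replicate 1 read 5.81 and 10.31 and P3 replicate 2 read 12.98 and 4.36. High Xist together with a high Y-linked gene was found in 6 of the 12 arrays (Xist over 10 and Eif2s3y over 8), which is not what RNA of 1 mouse of one sex gives. The p-values below therefore measure the spread between arrays, which may not be the spread between single mice. The P3 arrays also stood apart from each other in the pigment cell gene Tyr, at 10.42 in replicate 1 and 6.31 in replicate 2, and in the mean of 84 cell division genes, at 8.36 and 9.11.

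Between P3 and P7, 4496 of 45037 probe sets changed, which is 9.98% (limma with the spread of all 12 arrays, Benjamini-Hochberg adjusted p under 0.05 and a fold over 1.5). Of these, 2703 were higher at P7 and 1793 were lower, and 180 rose and 49 fell by over 4-fold. Without P7 replicate 2, the array with markers of both sexes, 4390 were called. Without P7 replicate 1 the count was 2390, with 1615 higher and 775 lower. P7 replicate 2 lay nearer to the P3 mean than P7 replicate 1 did in 74% of the called probe sets, and in 81.9% of those called lower. The balance of 3' over 5' signal of the Actb control probe sets was 1 and 1.24 at P3 (log2 difference) and 0.81 and 0.91 at P7, and with it as a covariate 2727 probe sets were called.

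This was the step between neighbouring stages with the most calls. The step from P0 to P3 gave 1703 (3.78%), that from P7 to P10 gave 104 (0.231%) and that from P14 to P21 gave 1105 (2.45%). From P10 to P14 none passed (0%), although 729 had an unadjusted limma p under 0.05 with a fold over 1.5, and 2 passed with the replicate number as a block. The steps span 3, 4, 3, 4 and 7 days. The Actb balance was 2.32 and 2.03 in the P21 arrays and at most 1.41 in the arrays of the other stages. Its part in the step from P14 to P21 and in the P21 levels was not tested. The P14 arrays stood apart from each other in the mean of the 84 cell division genes, at 8.78 and 7.72. The mean squared log2 change, less the spread between arrays, was 0.0422 per day from P3 to P7 and 0.0228 per day from P0 to P3, and it was at most 0.0124 per day in the later steps.

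**Figure D1:**
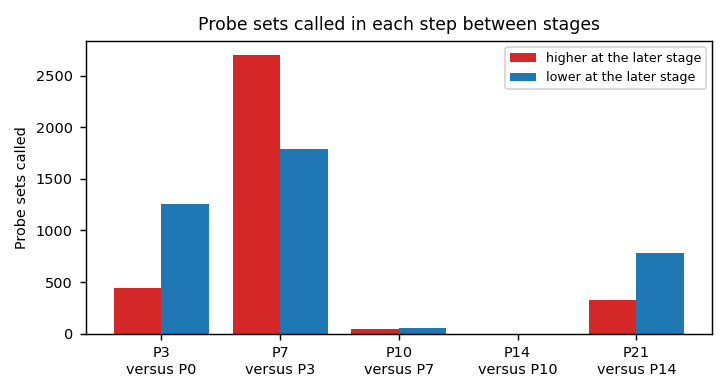
Number of probe sets called in each of the 5 steps between neighbouring stages (y axis, count), with red bars for those higher and blue bars for those lower at the later stage. The step from P3 to P7 has 2703 higher and 1793 lower, and neighbouring steps share arrays.

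Among genes, each taken by its brightest probe set, 7.81% of 18193 were called higher and 5.36% lower, and the median log2 change was -0.05. These are the shares against which the gene lists below are read. In such bulk tissue, fewer cells of a type and less RNA per cell cannot be told apart.

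The largest rises by fold were those of Mobp and Ibsp. For the largest rises and falls, each gene was taken by its called probe set with the largest change. Mobp, a myelin protein of oligodendrocytes, read 4.46 and 5.57 at P3 and 10.98 and 9.35 at P7, a 35.5-fold rise (adjusted p = 0.000275). Its P3 replicate 1 lies in the lowest 25% of that array and may be background, so the size of this rise is uncertain. Of the 4 other probe sets of Mobp, 3 were called higher (log2 change 4.38, 3.07 and 2.24) and 1 was not called (0.26). Ibsp, a sialoprotein of mineralising bone, read 7.73 and 6.89 at P3 and 12.69 and 11.89 at P7, a 31.6-fold rise. The other probe set of Ibsp was called higher with a smaller log2 change of 3.08. Otop1, a proton channel, rose 11-fold (log2 change 3.46 ± 0.19 SE). Bpifa1, a secreted airway protein, was among the 15 largest rises but read 7.20 in P7 replicate 1 and 11.48 in P7 replicate 2, and among the fits that left out 1 of the 12 arrays it was called only without P7 replicate 1. Without P7 replicate 2 its adjusted p was 0.086.

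The largest falls by fold were those of Crabp1 and Serpinb5. Crabp1, which binds retinoic acid in the cytoplasm, read 9.77 and 10.35 at P3 and 4.82 and 5.80 at P7, a fall of 26.9-fold (adjusted p = 1.67e-05). Its P7 replicate 1 value lies in the lowest 25% of that array and may be background, so the size of this fall is uncertain. Serpinb5, an epithelial serpin, read 8.89 and 8.67 at P3 and 3.93 and 4.27 at P7. The P7 values lie in the lowest 25% of each array and may be background. The fall at this probe set was therefore at least 12.8-fold. The 3 other probe sets of Serpinb5 were called lower with smaller changes (log2 change -1.76, -2.87 and -4.04). Agr2 and Agr3, which fold secreted proteins in epithelial cells, fell 7.94-fold and 8.43-fold. The other probe set of Agr2 was called lower with a smaller log2 change of -1.63.

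**Figure D2:**
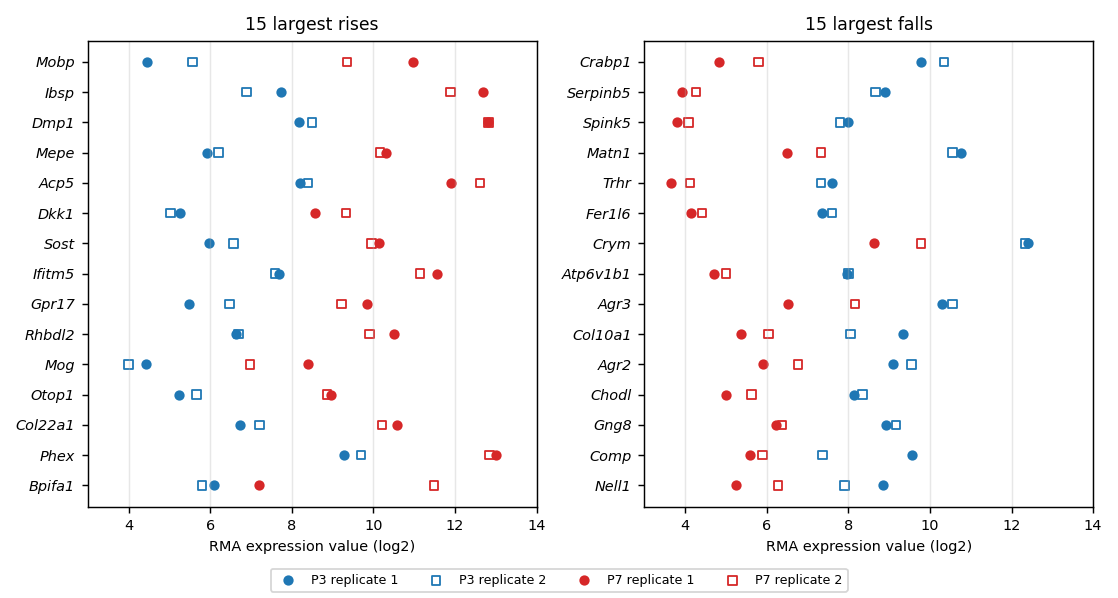
RMA expression values (x axis, log2) of the 15 genes with the largest rises (left) and the 15 with the largest falls (right) in the 2 P3 arrays (blue) and the 2 P7 arrays (red), with circles for replicate 1 and squares for replicate 2. The stages do not overlap for any gene, which the choice of genes required, and for Bpifa1 the P7 arrays lie far apart at 7.20 and 11.48.

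Sodium channel genes moved in both directions. Of 11 sodium channel subunits, 3 rose and 3 fell (median log2 change 0.20). Scn8a, the channel of mature nodes of Ranvier, read 6.90 and 7.40 at P3 and 9.68 and 9.16 at P7, a 4.82-fold rise. Scn4b, a subunit that speeds recovery of the channel, rose 4.5-fold. Scn9a, a channel of peripheral sensory neurons, read 9 and 8.56 at P3 and 7.03 and 7.25 at P7, a 3.12-fold fall. Of its 4 other probe sets, 1 was called lower. Scn11a, another such channel, fell 2.03-fold.

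Of 23 potassium and HCN channel genes, 6 rose and 2 fell (median log2 change 0.04), and no fall was called without P3 replicate 2 or without P7 replicate 1. Kcnc1, which lets neurons fire at high rates, read 6.59 and 6.84 at P3 and 9.82 and 9.36 at P7, a 7.34-fold rise (adjusted p = 9.35e-05). Of the 3 other probe sets of Kcnc1, 1 was called higher. Kcna1, a channel beside the node, rose 4.72-fold and Kcnh2, a channel of slow repolarisation, rose 2.69-fold. Of 19 genes of the node and paranode, 8 rose and none fell (median 0.44). They were led by Lgi3, a secreted partner of axonal potassium channels, at 6.75 and 6.59 at P3 and 9.21 and 8.59 at P7. Without P3 replicate 1, or without P7 replicate 1, 5 of the 8 were called.

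Genes of the axonal skeleton and of transmitter release rose. Of 19 genes of neurofilaments and the stable cytoskeleton, 10 rose and 1 fell (median log2 change 0.78). The median was 0.46 with the Actb balance as a covariate, and the 1 fall was called neither then nor without P3 replicate 2 or P7 replicate 1. Thy1, a surface protein of mature axons and not of the skeleton itself, read 7.08 and 7.53 at P3 and 10.33 and 9.80 at P7. This was a 6.77-fold rise. The study sorted fibroblasts of the nerve by Thy-1.2, and which cells gave the rise was not tested. Nefl, the light neurofilament chain, rose 3-fold and Map1a, a protein of mature microtubules, rose 3.22-fold. Of 35 genes of synaptic vesicle release, 18 rose and none fell (median 0.66). Vamp1, a vesicle SNARE, read 8.03 and 7.93 at P3 and 10.58 and 9.77 at P7, and Snap25, its partner in the membrane, read 11.18 and 11.30 at P3 and 12.94 and 12.69 at P7. The vesicle count was 7 without P7 replicate 1, 11 without P3 replicate 1 and 7 with the Actb balance as a covariate.

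Of 33 genes of axon growth and young neurons, 5 fell and 3 rose (median log2 change 0.02), and 1 rise was called without P7 replicate 1 and 0 with the Gapdh balance as a covariate, an alternative added after seeing the data. Dcx, which binds microtubules in migrating neurons, read 9.14 and 9.56 at P3 and 7.18 and 7.10 at P7, a 4.63-fold fall (adjusted p = 1.95e-05). Another probe set of Dcx was called lower (log2 change -1.82), while the rest were not called (-0.43 and -0.15). Sox11, a factor of immature neurons, fell 2.43-fold, and its 5 other probe sets were also called lower. Of 23 genes of SGN identity, 3 rose and 2 fell (median 0.05), while neither fall was called without P7 replicate 1 or with the Gapdh balance, 1 was called without P3 replicate 2, and 5 rises were called with the 4 arrays alone. Calb2, a calcium-binding protein of a class of SGNs, rose 2.9-fold. Gata3, a factor that SGNs need, read 11.42 and 11.35 at P3 and 11.19 and 11.59 at P7 and did not pass (adjusted p = 0.993).

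Of 16 glutamate receptor subunits, 5 rose and none fell (median log2 change 0.06), and 2 rose with the Gapdh balance as a covariate. Gria1, an AMPA receptor subunit, read 5.34 and 5.90 at P3 and 7.45 and 7.23 at P7, a 3.29-fold rise. Of 47 axon guidance genes, 10 rose and 7 fell (median 0.04). Ntn4, a secreted netrin, read 8.27 and 8.29 at P3 and 9.80 and 9.91 at P7. Sema3c, a secreted semaphorin, read 10.65 and 10.55 at P3 and 9 and 9.06 at P7. The other probe sets of Ntn4 and Sema3c were not called (log2 change 0.26 and -0.57). The count of guidance genes that fell was 3 without P7 replicate 1, 4 without P3 replicate 1 and 3 with the Actb balance as a covariate.

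Of 19 peripheral myelin genes, 14 rose and 1 fell (median log2 change 1.02), against the 7.81% of all genes that rose. The 1 fall was called neither without P3 replicate 2 nor without P7 replicate 1 nor with the Actb balance. Drp2, which links the myelin sheath to the basal lamina, read 8.06 and 7.89 at P3 and 10.16 and 9.95 at P7, a 4.23-fold rise. Pmp22, a compact myelin protein that was already bright, read 13.21 and 13.15 at P3 and 14.36 and 14.26 at P7. Fa2h, which makes the hydroxylated fatty acids of myelin lipids, rose 5.26-fold, and Ugt8a, which makes galactosylceramide, rose 2.58-fold. Among 27 Schwann cell transcription factors, 5 rose and 2 fell, and neither fall was called without P3 replicate 2 or without P7 replicate 1. Egr2, which drives myelin genes, rose 1.82-fold, and Pou3f1, a factor of the promyelinating stage, rose 2.79-fold.

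Basal lamina genes rose in part. Of 34 genes of the basal lamina and integrins, 8 rose and 1 fell (median log2 change 0.24). Col4a3 and Col4a4, chains of one collagen IV network, rose 5.86-fold and 4.08-fold. Col4a4 read 7.72 and 7.63 at P3 and 9.75 and 9.66 at P7. The count of risers was 4 without P7 replicate 1, 5 without P7 replicate 2 and 5 with the Actb balance as a covariate.

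Oligodendrocyte genes also rose, from a low level. Of 21 genes, 12 rose and none fell (median log2 change 1.30). Without P7 replicate 1 the median was 0.70 with 9 called. Their mean level was 7.31 and 7.52 at P3 and 8.98 and 8.56 at P7. Gpr17, a receptor of cells about to become oligodendrocytes, read 5.49 and 6.47 at P3 and 9.84 and 9.22 at P7, an 11.7-fold rise. Enpp6, an enzyme of newly formed oligodendrocytes, read 5.57 and 5.30 at P3 and 8.32 and 8.10 at P7, a 6.84-fold rise (adjusted p = 3.56e-06). Of 20 astrocyte genes, 6 rose and 1 fell (median 0.49), while 3 rose and 2 fell with the Gapdh balance as a covariate. The list was led by Aqp4, the water channel of astrocyte endfeet, at 8.6 and 9.80 at P3 and 11.78 and 11.58 at P7. Oligodendrocytes and astrocytes are cells of the central segment. Whether these genes were read from such cells, and how much of that segment each dissection held, was not tested.

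Bone genes had the largest median change of the lists. Of 18 genes of bone formation, 13 rose and none fell (median log2 change 2.55), and the mean level was 8.43 and 8.56 at P3 and 10.76 and 10.69 at P7. Dmp1, a matrix protein of osteocytes, read 8.17 and 8.50 at P3 and 12.82 in both P7 arrays, a 22.4-fold rise (adjusted p = 2.12e-07). Mepe, another osteocyte protein, read 5.93 and 6.20 at P3 and 10.32 and 10.16 at P7, an 18.1-fold rise. Sp7, a factor that osteoblasts need, rose 5.48-fold and Sost, an osteocyte inhibitor of Wnt signals, rose 13.7-fold. The other probe set of Sost was called higher with a smaller log2 change of 1.25. Dmp1 and Mepe are shown by the 250 bases before their start (RefSeq, GRCm38.p6, both on the plus strand, chr5:104202367-104202616 and chr5:104325079-104325328), with matches to the Runx letters TGTGGT on either strand in capitals.
Dmp1: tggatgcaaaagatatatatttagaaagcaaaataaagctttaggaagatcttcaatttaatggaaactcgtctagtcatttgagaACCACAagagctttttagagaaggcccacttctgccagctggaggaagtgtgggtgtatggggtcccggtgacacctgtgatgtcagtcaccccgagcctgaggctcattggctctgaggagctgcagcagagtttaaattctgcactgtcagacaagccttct
Mepe: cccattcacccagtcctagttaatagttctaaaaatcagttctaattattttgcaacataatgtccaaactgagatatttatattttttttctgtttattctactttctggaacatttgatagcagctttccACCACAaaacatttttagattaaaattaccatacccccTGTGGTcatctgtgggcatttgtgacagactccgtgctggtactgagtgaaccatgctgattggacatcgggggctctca
These letters were in the windows of 2 of the 7 called members that have a window in the table, in 23.1% of the 13 windows of the list and in 14% of all 32851 windows. The window of Dmp1 is 1 of its 2 in the table.

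Genes of osteoclasts, which resorb bone, also rose. Of 19 genes, 9 rose and none fell (median log2 change 0.70). Acp5, their acid phosphatase, read 8.20 and 8.4 at P3 and 11.90 and 12.61 at P7, a 15.5-fold rise, and Atp6v0d2, a proton pump subunit, rose 5.76-fold. The count was 5 without P3 replicate 2, 5 without P7 replicate 2 and 2 with the Actb balance as a covariate. Of 24 cartilage genes, 6 fell and 5 rose, and 3 fell in a fit of the 4 arrays alone. Matn1, a matrix protein of cartilage, read 10.75 and 10.55 at P3 and 6.5 and 7.33 at P7, a 13.3-fold fall. Col10a1, the collagen of hypertrophic cartilage, read 9.34 and 8.05 at P3 and 5.36 and 6.04 at P7. It had read 5.20 and 5.02 at P0, so this fall followed a rise from P0 to P3. Col11a2, another cartilage collagen, rose 3.61-fold.

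Of 24 hair cell genes, 7 fell and 1 rose (median log2 change -0.19, or -0.31 without P7 replicate 2 and -0.12 without P7 replicate 1), against the 5.36% of all genes that fell. Atoh1, which starts hair cell formation, read 8.13 and 7.84 at P3 and 5.43 and 5.65 at P7, a 5.45-fold fall (adjusted p = 1.67e-05). Lhx3, a hair cell factor, fell 2.65-fold, but its other probe set was not called (log2 change -0.26). Myo7a, a hair cell marker, had a log2 change of -0.82 and was not called with the 4 arrays alone (limma adjusted p = 0.109). Otof, another marker, read 8.16 and 8.68 at P3 and 7.61 and 8.35 at P7. This change was not called (log2 change -0.44, limma adjusted p = 0.278). From P0 to P10 Otof was not called either (log2 change 0.09, limma adjusted p = 0.843). Without P7 replicate 1, or with the Actb balance as a covariate, 4 of the 7 were called. The 1 riser was Pvalb, which SGNs also make, and without P7 replicate 1 its adjusted p was 0.0534. Among 21 genes of supporting cells and the tectorial membrane, 5 fell and 2 rose. Hes5, a Notch target in supporting cells, read 9.50 and 9.45 at P3 and 6.79 and 7.46 at P7. Tecta, of the tectorial membrane, read 12.76 and 12.99 at P3 and 10.04 and 11.92 at P7, and without P7 replicate 1 its log2 change was -0.96 (adjusted p = 0.284). Without P7 replicate 1, 2 of the 5 were called, and without P3 replicate 2, or with the Actb balance, 3 were. Most of the sensory epithelium had been dissected away, and how much stayed on each sample was not tested.

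The lateral wall had been removed, yet some of its genes were bright. Of 27 genes of fibrocytes, the lateral wall and endolymph transport, 3 rose and 2 fell (median log2 change -0.34). No fall was called without P3 replicate 1, without P7 replicate 1 or with the Actb balance, 1 was called without P7 replicate 2 and 5 without P3 replicate 2. The median ran from -0.41 without P3 replicate 2 to -0.06 without P3 replicate 1. Otos, a secreted protein of fibrocytes, read 11.10 and 10.27 at P3 and 14.03 and 13.77 at P7, a 9.29-fold rise (adjusted p = 0.0002). The mean level of the list was 10 in P3 replicate 1, the array that was high in Tyr, and 8.99 in P3 replicate 2, and it was 9.04 and 9.36 at P7.

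Thyroid hormone and retinoid genes were split, with 6 of 26 higher and 4 lower. Dio2, the enzyme that activates thyroid hormone, read 10.34 and 10.10 at P3 and 12.84 in both P7 arrays, a 6.15-fold rise (adjusted p = 7.64e-06). Slco1c1, which carries thyroxine into cells, rose 3.02-fold. Klf9 and Hr, which thyroid hormone is known to induce, rose 3.4-fold and 2.58-fold, but the other probe set of Hr was not called (log2 change -0.07). Crym, which binds the hormone in the cytoplasm, read 12.41 and 12.33 at P3 and 8.64 and 9.78 at P7, an 8.94-fold fall.

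In Wnt and Hedgehog signalling, 14 of 53 genes rose and 7 fell (median log2 change 0.00). The risers included the ligand Shh, at 7.28 and 7.73 at P3 and 9.55 and 9.51 at P7, and the secreted Wnt inhibitors Dkk1, which rose 14-fold, and Sfrp5, which rose 3.45-fold. Rspo2, which strengthens Wnt signals, fell 3.8-fold. The other probe sets of Shh, Sfrp5 and Rspo2 were not called (log2 change -0.05, 0.16 and -0.25). Among 13 genes that the study followed by PCR, Shh rose and Dcx, Calb1, Ednrb and Sox2 fell, while 8 did not pass. Gfap was 1 of the 8 by its brightest probe set. Another of its probe sets was called higher (log2 change 1.85, limma adjusted p = 0.00799) and a further one was not (0.30). The study took the 13 genes from its array results on injured nerve, for their known roles in neural development. Whether these 12 arrays entered that choice is not stated. Sox2, a progenitor factor, fell 1.59-fold and Ednrb 1.80-fold. Without P7 replicate 1, neither they nor Calb1 were called (adjusted p = 0.16, 0.175 and 0.0545), and without P3 replicate 2 Sox2 had adjusted p = 0.106 and Ednrb adjusted p = 0.155.

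Of 29 macrophage and microglia genes, 15 rose and none fell (median log2 change 0.70). Csf1r, the receptor for the macrophage growth factor, read 11.13 and 10.90 at P3 and 11.91 and 12.54 at P7, and Mpeg1, a pore-forming protein of macrophages, rose 3.19-fold. The count was 6 without P3 replicate 2, 7 without P7 replicate 1, 8 without P7 replicate 2 and 8 with the Actb balance as a covariate. Of 20 genes of the interferon response and MHC class I, 8 rose and none fell (median 0.50), and 5 did so without P3 replicate 1, without P7 replicate 1 or with the Actb balance. The median was 0.30 without P3 replicate 1. H2-D1, a class I heavy chain, read 9.18 and 9.04 at P3 and 11.60 and 11.99 at P7, a 6.43-fold rise, although class I genes are near copies of each other and can share probes. B2m, the light chain, read 12.25 and 12.32 at P3 and 13.32 and 13.53 at P7, and Psmb8, a subunit of the immunoproteasome, rose 3.82-fold. The other probe set of Psmb8 was not called (log2 change 0.56). Of 18 neutrophil genes 1 rose and of 18 lymphoid genes 2 rose, and none of either list was called without P3 replicate 1, without P7 replicate 1 or with the Actb balance.

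The interferon-stimulated response element (letters GAAANNGAAA, either strand) was in the 250 bases before the start of 3 of the 8 called members, namely B2m, Ifit1 and Ifit3, and in 2.98% of all windows. They are shown with the matches in capitals (RefSeq, GRCm38.p6, plus strand, chr2:122147437-122147686, chr19:34640639-34640888 and chr19:34583279-34583528). Over the whole list, 6 of 23 windows held it, or 26.1%.
B2m: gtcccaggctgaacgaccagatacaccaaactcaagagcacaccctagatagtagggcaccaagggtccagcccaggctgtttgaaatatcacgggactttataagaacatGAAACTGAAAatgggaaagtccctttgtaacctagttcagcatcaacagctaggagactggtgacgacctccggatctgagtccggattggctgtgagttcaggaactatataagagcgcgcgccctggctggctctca
Ifit1: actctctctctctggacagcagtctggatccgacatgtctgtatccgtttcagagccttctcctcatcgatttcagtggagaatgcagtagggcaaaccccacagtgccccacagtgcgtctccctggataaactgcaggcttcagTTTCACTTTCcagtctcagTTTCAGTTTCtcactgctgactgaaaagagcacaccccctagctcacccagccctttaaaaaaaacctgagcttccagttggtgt
Ifit3: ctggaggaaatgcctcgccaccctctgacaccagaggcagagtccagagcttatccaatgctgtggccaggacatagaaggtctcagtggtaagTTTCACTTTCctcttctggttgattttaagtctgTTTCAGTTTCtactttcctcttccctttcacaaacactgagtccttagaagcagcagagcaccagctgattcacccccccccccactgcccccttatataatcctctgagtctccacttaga
Ifit1 rose 2.33-fold and Ifit3 2.48-fold. Without P3 replicate 1 neither was called (adjusted p = 0.0581 and 0.0575), nor without P7 replicate 1 (adjusted p = 0.0815 and 0.153), and Ifit3 was also lost without P3 replicate 2 (adjusted p = 0.0958).

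Of 84 cell division genes, 11 fell and none rose (median log2 change -0.46). The median was -0.05 without P3 replicate 2 and -0.87 without P3 replicate 1. Gins1 and Gins2, of the replication helicase, fell 2.06-fold and 2.18-fold, and Ccnd1, a cyclin of G1, read 11.96 and 11.97 at P3 and 10.86 and 11.25 at P7. Mki67, a marker of cycling cells, read 7.56 and 9.38 at P3 and 9.64 and 9.70 at P7 and did not pass (adjusted p = 0.233). The count was 5 without P3 replicate 2, 5 without P7 replicate 1 and 19 without P14 replicate 1 or without P14 replicate 2. The letters TTTGAA, known as the cell cycle homology region, were in 24.3% of 74 windows of the list and in 16% of all windows. Of the 6 called members that have a window, 1 held them, namely Cks1b.

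Of the lists of growth and energy, glycolysis and brain energy supply had 5 of 22 genes higher and none lower (median log2 change 0.24), with 2 higher without P3 replicate 1, without P7 replicate 1 or with the Actb balance as a covariate. Ckb, the brain creatine kinase, read 12.37 and 12.44 at P3 and 13.34 and 13.25 at P7, a 1.85-fold rise. Of 61 nuclear genes of oxidative phosphorylation, 2 rose and none fell (median 0.04), and none was called without P3 replicate 2 or without P7 replicate 1. Of 27 ribosomal protein genes, 1 rose and 3 fell (median -0.24). Rps6, of the small ribosomal subunit, read 10.85 and 10.91 at P3 and 9.52 and 9.89 at P7, a 2.26-fold fall, while its other probe set was not called.

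**Figure D3:**
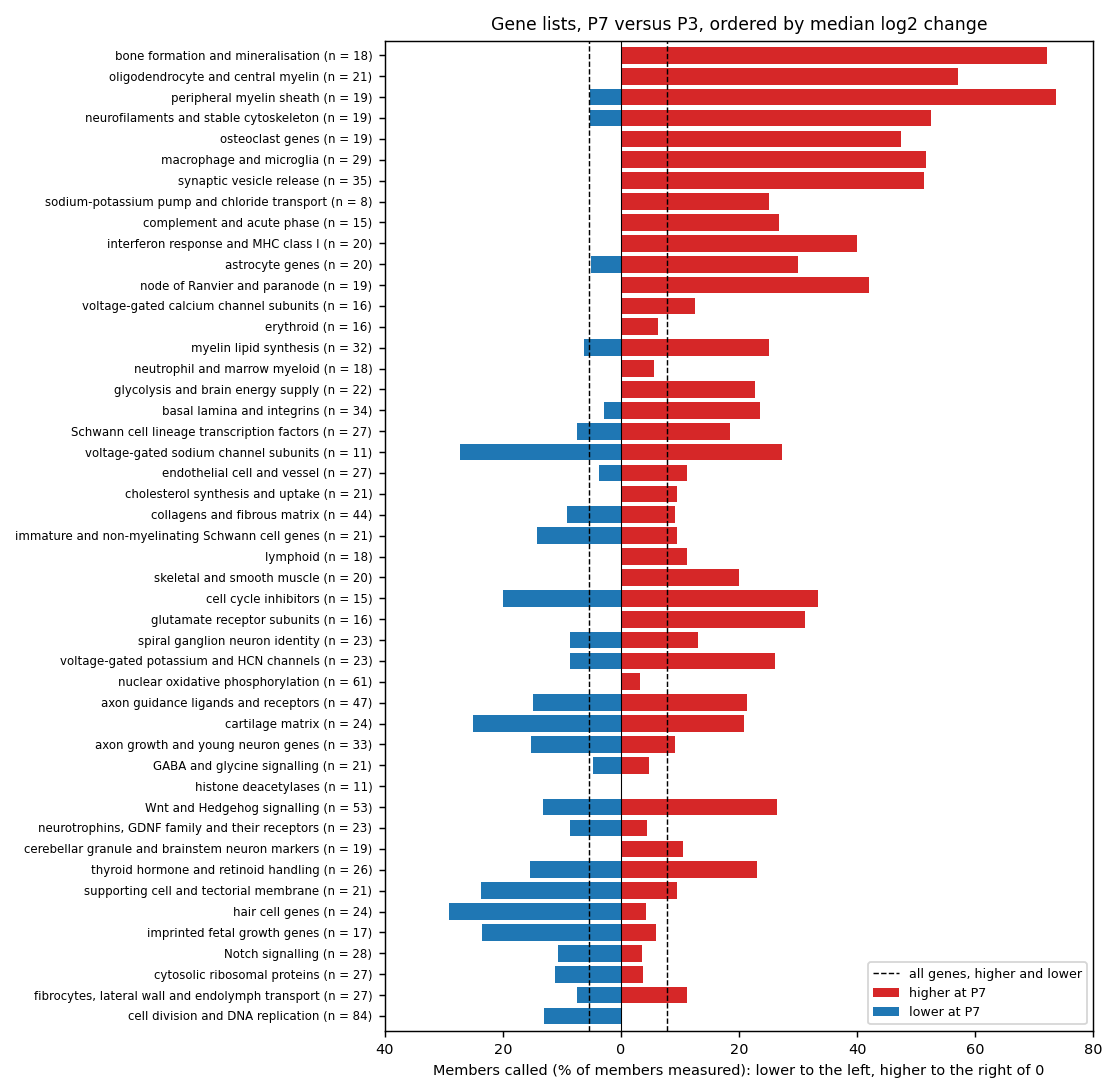
Share of the members of each gene list called higher at P7 (red, right of 0) or lower (blue, left of 0), in percent of the members measured (x axis), with lists ordered by their median log2 change. Dashed lines mark the shares among all genes, 7.81% higher and 5.36% lower, and bone formation lies at the top with 72.2% higher.

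The P0 and P10 arrays give no level to the comparison of P7 and P3, although they enter its estimate of spread and so bear on which probe sets were called. Of the 2703 that were higher at P7 than at P3, 63.5% were called higher at P10 than at P0 and 1.52% lower, where 9.24% of all probe sets were higher. Of the 1793 that were lower, 74.1% were called lower at P10 and 0.279% higher, where 10.1% of all were lower. The shares from P0 to P21 were 57.3% higher and 68% lower, where 12.4% and 14.9% of all probe sets were called higher and lower. These comparisons share the estimate of spread with that of P7 and P3, but the levels compared come from other arrays.

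Levels at the later stages differed between the lists. The osteoclast list read 8.63 and 9.15 at P7 and 7.49 and 7.48 at P21, near its 7.43 and 7.31 at P0. The bone list read 10.76 and 10.69 at P7 and 9.77 and 9.50 at P21, while oligodendrocyte genes read 8.98 and 8.56 at P7 and 9.72 and 9.53 at P21.

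**Figure D4:**
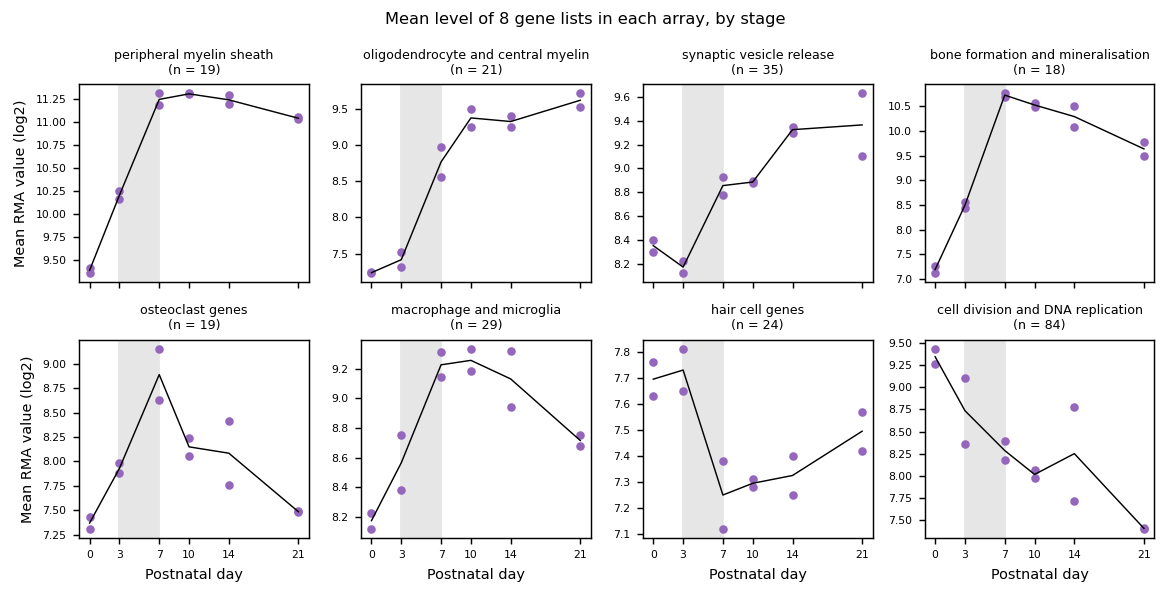
Mean RMA value (y axis, log2, a separate scale in each panel) of 8 gene lists in each of the 12 arrays (points) against postnatal day (x axis), with a line through the stage means and the interval from P3 to P7 in grey. Osteoclast genes peak at P7 at 8.63 and 9.15, and oligodendrocyte genes go on to 9.72 and 9.53 at P21.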

How the data were processed

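Each array was made by the authors from 100 ng of total RNA, labelled with the Affymetrix 3' IVT Express Kit, and summarised with RMA in Affymetrix Expression Console, per the labels. The deposited values are log2 expression values per probe set. A second summary, MAS5, is named in the submitters' processing notes and was not used here. The number of arrays limits the precision.

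Of 45101 probe sets, 64 controls were left out. A probe set was named where the platform table gave 1 symbol (34945), 932 had several and 9160 none. limma 3.58.1 in R 4.3.3 fitted 6 stage means to the 12 arrays (6 residual and 4.03 prior degrees of freedom). A call needed an adjusted p under 0.05 and a fold over 1.5. Lists counted each gene by its brightest probe set over all arrays, and 1209 of 1326 entries matched. Other probe sets of a named gene could differ, and the text does not give all of them. Named genes were the 15 largest rises and 15 largest falls, up to 6 called members per list and the 13 PCR genes, from which the text gives a selection. A gene among the largest rises and falls was read throughout from its called probe set with the largest change. The genes Tubb3, Gata3, Sox10, Tyr, Mki67, B2m, Sp7, Pmp22, Myo7a, Otof, Enkur, Pifo, Efcab10, Capsl, Foxj1, Cldn6, Smoc2, Gcg and Epcam were chosen after their values were seen. A gene in the lowest 25% of both arrays of a stage was given a fold of at least its distance to that level. Members and lists were chosen with earlier results of these data known. Alternatives were leaving out each array, blocking on replicate number, array weights, a trend of the prior with intensity, a filter on dim probe sets, the 4 arrays alone, the methods' t-test, arrays shifted to one median, control-probe balance as a covariate and other fold limits. The fit was tested on simulated data. Promoter windows came from RefSeq. Python 3.11.15 and pandas 2.3.3 made the summaries.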

Additional observations from a re-analysis of the deposited data

How the results depend on the processing

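The count of 4496 called probe sets (2703 higher, 1793 lower) fell to 2727 (1738 and 989) with the Actb 3' to 5' balance as a covariate and to 2555 (1620 and 935) with that of Gapdh, an alternative chosen after seeing the data. It was 1731 (1194 and 537) with a fold over 2 and 6976 (3704 and 3272) with no fold limit. The methods' t-test called 3163 at its unadjusted threshold and 0 (0 higher and 0 lower) after Benjamini-Hochberg. Leaving out 1 array gave 2390 to 4745 in all, 1615 to 2859 higher and 775 to 1886 lower, and the share of higher calls that were also higher from P0 to P10 ran from 56.3% to 68.7%, that of lower calls from 67.5% to 79.9%. With the replicate number as a block 4542 were called. The numbers do not pair the arrays by the labels, and same-numbered P3 and P7 arrays deviated with r = 0.235. Shifting the arrays to one median gave 2537 higher and 2049 lower. Of 238 named genes that were called, 154 kept the call in all alternatives run and none turned direction, while 72 lost it without P7 replicate 1 and 57 with the Actb balance. With 2 arrays a stage, a change that is small against a pooled SD of 0.19 could be missed, and dim probe sets have no detection call here.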

Other observations

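The genes here were chosen after their values were seen, so their number and direction support nothing. Enkur, Pifo, Efcab10 and Capsl, each known from motile cilia, fell 4.44-fold, 4.38-fold, 3.84-fold and 3.76-fold. Enkur read 7.42 and 7.50 at P3 and 5.05 and 5.57 at P7 (limma adjusted p = 0.000148). Foxj1, the factor that drives motile cilia genes, read 6.10 and 6.20 at P3 and 5.81 and 5.93 at P7 and did not pass (adjusted p = 0.282). Cldn6, a tight junction protein of immature epithelia, read 9.82 and 9.53 at P3 and 7.10 and 7.36 at P7, and Smoc2, a secreted matrix protein, read 11.52 and 11.79 at P3 and 8.93 and 9.35 at P7. Epcam, a general epithelial marker, was not called by its brightest probe set. The other probe set of Epcam was not called either (log2 change -0.40, limma adjusted p = 0.16).

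Gcg, which encodes glucagon and related peptides, read 6.49 and 6.28 at P3 and 9.23 and 8.69 at P7, a 5.96-fold rise, and 4.95 and 4.6 at P21.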
